A study of Mus musculus with 25 samples.

Results

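The hearts described here are the 7 that carry the MCT1KO label and were collected either after a saline pump (4 hearts) or without a pump (3 hearts), out of 25 mouse hearts in the series. They were chosen by their sample titles alone, so no measured value entered the choice. The series compared WT and MCT1KO hearts under 3 conditions, no pump, saline, and Ang/PE, a pair of neurohormonal agonists used to cause hypertrophy, and its stated subject is lactate metabolism in the hypertrophic heart. Saline is the vehicle arm of the infusion experiment, so saline against no pump in one genotype asks what the pump and its vehicle change before any agonist is added. The labels give the tissue (heart), genotype and treatment, and nothing on sex, age, strain, the promoter or cell type in which the gene was deleted, the infusion time or the part of the heart that was taken. Each library is labelled as a heart of its own, and the p-values measure the spread between hearts only. In the fit as reported that spread was estimated from all 25 hearts of the series, not from these 7 alone.

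MCT1, encoded by Slc16a1, is a plasma membrane carrier that moves lactate, pyruvate and ketone bodies together with a proton. The working heart is known to take up lactate, to oxidise it by way of pyruvate dehydrogenase, and to burn fatty acids as its main fuel. Infusion pumps are usually implanted under the skin by surgery, and a vehicle group carries the effects of that procedure.

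Slc16a1 (ENSMUSG00000032902) was examined first, as the gene the label names. Its level was 210, 223 and 167 CPM (counts per 10⁶, with library sizes scaled by TMM) in the 3 hearts without a pump and 153, 153, 194 and 132 CPM in the 4 saline hearts. The groups overlapped, with saline heart 3 inside the range of the hearts without a pump and the other 3 below it. The log2 fold change, saline over no pump, was −0.34 (SE 0.15), with an edgeR adjusted p of 0.376. Without a pump the level was 199.8 ± 29.6 CPM (SD, n = 3) in MCT1KO and 203 ± 36.8 CPM (n = 4) in WT hearts. With saline it was 158 ± 26.0 CPM (n = 4) in MCT1KO and 199 ± 29.9 CPM (n = 6) in WT hearts, and saline hearts 1, 2 and 4 lay below all 6 WT saline hearts (165 to 249 CPM). The difference between genotypes was not tested, and the label was taken from the titles. The labels do not give the deleted stretch, and a total over the gene cannot show the loss of single exons.

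The 7 libraries did not stand alike before any treatment effect was tested. Total counts, in units of 10⁶, were 18.9 to 22.6 in the hearts without a pump and 14.03 to 17.4 in the saline hearts. The share of counts from the mitochondrial genome was 12.8% to 18.2% without a pump, 17.3% in saline heart 3 and 9.03% to 10.04% in the other 3 saline hearts. Xist, transcribed from the inactive X of female cells, was at 610 to 658 CPM in saline hearts 1, 2 and 3 and at 0.354 CPM or less in saline heart 4 and in all 3 hearts without a pump. Pump and apparent sex can therefore be separated within the MCT1KO label only through saline heart 4. Saline hearts 1, 2 and 4 also held atrial RNA at levels not seen in saline heart 3 and far more fat RNA than it did, described below, and each main result is given with and without saline heart 3. On the first principal component of these 7 hearts, 51.1% of the variance, saline heart 3 lay at −31.3, between hearts without a pump (−37.4 to −20.6), while saline hearts 1, 2 and 4 lay at 15.6, 14.3 and 89.95.

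Of 17682 genes tested, 1 passed an adjusted p of 0.05 in edgeR's quasi-likelihood test, which is 0.00566% of the genes, and it was lower with saline. An unadjusted p below 0.05 was reached by 2142 genes (12.1%), of which 1314 were higher (7.43%) and 828 lower (4.68%) with saline. The CPM of the 4 and the 3 hearts did not overlap for 826 genes that were higher (4.67%) and 695 that were lower (3.93%). The median log2 fold change over all genes was 0.01.

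The called gene was Abcb1a (ENSMUSG00000040584), which encodes a P-glycoprotein, an ATP-driven pump of the capillary endothelium that exports drugs and other lipophilic compounds. It was at 34.1, 36.7 and 32.4 CPM without a pump and at 25.4, 22.1, 22.6 and 20.7 CPM with saline. All 4 saline hearts, saline heart 3 included, lay below all 3 hearts without a pump. The mean without a pump was 34.4 ± 2.15 CPM (SD, n = 3) and fell to 22.7 ± 1.97 CPM (SD, n = 4). On the log2 scale this was −0.60 (95% confidence interval −0.80 to −0.40, SE 0.10), at an adjusted p of 0.044 in edgeR. Without saline heart 3 the value was −0.59 (SE 0.11, edgeR adjusted p 0.00963), and with saline heart 3 as the only saline heart it was −0.60 (SE 0.15, edgeR adjusted p 0.943). The edgeR adjusted p was 0.102 without saline heart 2 and 0.298 without saline heart 4. It was 0.305, 0.437 and 0.139 when heart 1, 2 or 3 without a pump was left out, so the call needed each of these 5 hearts.

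The mouse has a second P-glycoprotein gene next to it, Abcb1b, and the pair are close enough in sequence for short reads to fit both. In the GENCODE M21 transcripts the longest identical run spanned 338 bases, positions 1509 to 1846 of 4997 in Abcb1a and 1476 to 1813 of 4306 in Abcb1b, inside the open reading frame of both. The run was picked as the longest identical stretch, so it does not show how alike the copies are elsewhere. Its start is shown with the first 60 shared bases in capitals after 15 flanking bases, 5′ to 3′.
Abcb1a: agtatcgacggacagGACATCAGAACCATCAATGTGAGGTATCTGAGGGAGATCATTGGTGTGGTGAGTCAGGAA
Abcb1b: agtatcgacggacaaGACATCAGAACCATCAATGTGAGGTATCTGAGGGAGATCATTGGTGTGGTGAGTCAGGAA
Of 4948 windows of 50 bases along the Abcb1a transcript, 768 (15.5%) also occurred in Abcb1b, and 922 (18.6%) in at least 1 other gene, so most windows of that length occurred in Abcb1a alone. How the authors' counting treated reads that match both is not given in the sources used here. Abcb1b itself was at 10.1, 8.55 and 8.80 CPM without a pump and at 8.13, 10.9, 9.62 and 14.2 CPM with saline. Its groups overlapped, and its log2 fold change was 0.22 (SE 0.18) with no call.

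Upstream windows of the pair are shown because they differ, although parts of the coding sequences are identical. Each is the 250 bases before the first listed RefSeq start of the gene, on the plus strand of GRCm38.p6. The Abcb1a window is at chr5:8566841-8567090 and the Abcb1b window at chr5:8797897-8798146. Other starts of either gene were not examined, so the windows may not be the promoters used in the heart. Capitals mark matches, on either strand, to the CCAAT box (CCAAT), the GC box (GGGCGG), the E-box (CACGTG), the D-box (TTATGTAA) and the TATA box (TATAAA).
Abcb1a: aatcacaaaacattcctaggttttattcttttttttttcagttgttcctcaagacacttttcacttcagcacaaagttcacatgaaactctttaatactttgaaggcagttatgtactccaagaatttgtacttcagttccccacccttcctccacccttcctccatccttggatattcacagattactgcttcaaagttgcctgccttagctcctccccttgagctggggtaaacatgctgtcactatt
Abcb1b: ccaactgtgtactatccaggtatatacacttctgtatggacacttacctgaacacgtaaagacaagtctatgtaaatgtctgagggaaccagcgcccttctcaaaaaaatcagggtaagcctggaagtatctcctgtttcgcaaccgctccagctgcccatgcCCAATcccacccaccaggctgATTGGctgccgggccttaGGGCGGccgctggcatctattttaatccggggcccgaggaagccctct
The Abcb1b window held 2 CCAAT boxes and 1 GC box, and the Abcb1a window held none of the 5 letter strings. Among 32851 RefSeq mouse promoters of the same length, 33.8% held a CCAAT box, 32.7% a GC box, 12.4% a TATA box, 6.02% an E-box and 0.819% a D-box.

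Across the 25 hearts of the series, the 3 MCT1KO hearts without a pump held the 3 highest Abcb1a levels. WT hearts held 25.5 ± 2.29 CPM (SD, n = 4) without a pump and 29.6 ± 1.84 CPM (n = 6) with saline. The 5 MCT1KO Ang/PE hearts lay between 20.3 and 26.4 CPM, a range that takes in the 4 saline hearts. The pump effect in MCT1KO hearts minus that in WT hearts, which share no heart, was −0.81 (SE 0.13), and Abcb1a was the 1 gene of 17682 (0.00566%) to pass in this interaction (edgeR adjusted p 0.0285). The interaction had 0 calls with the Xist covariate, the marker scores, the clock score, the GC and length offsets or only the groups compared. It also had 0 calls when saline heart 2, 3 or 4, or heart 2 or 3 without a pump, was left out. An unadjusted interaction p below 0.05 was reached by 3044 genes (17.2%).

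**Figure D1:**
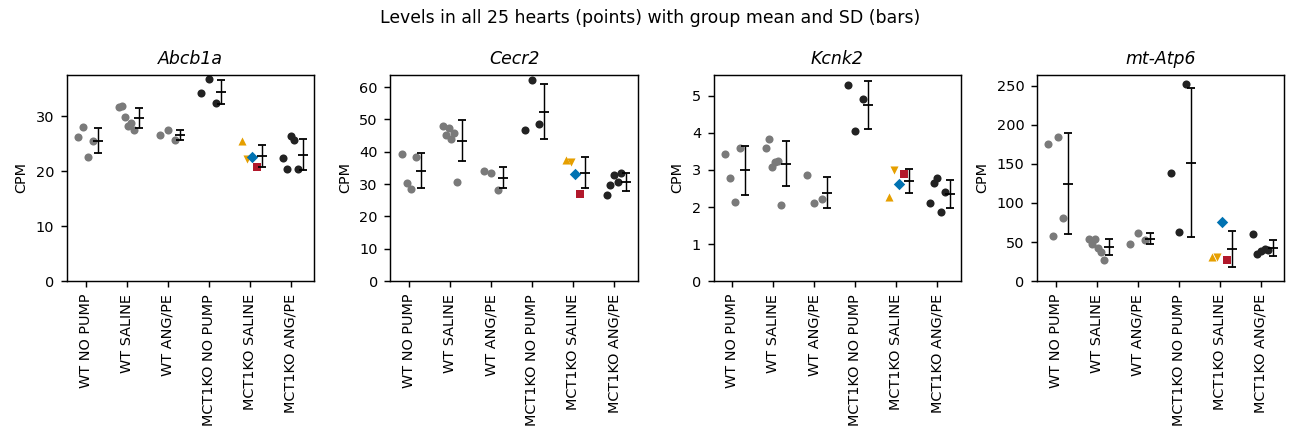
CPM of Abcb1a, Cecr2, Kcnk2 and mt-Atp6 in each of the 25 hearts (points) with the group mean and SD (bars), on linear axes from 0; the coloured points are saline hearts 1 and 2 (orange triangles), 3 (blue diamond) and 4 (red square). For Abcb1a, Cecr2 and Kcnk2 the 3 MCT1KO hearts without a pump lie above the 4 saline hearts, while for mt-Atp6 the value of 76.0 CPM in saline heart 3 lies within the spread of the hearts without a pump.

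Besides Abcb1a, the 11 genes of smallest p among those lower with saline in every heart had edgeR adjusted p-values of 0.129 to 0.144, so none was called. They were Mblac2, Nkain1, Cecr2, Etl4, Grb14, Pde11a, Kcnk2, Myo5b, D7Ertd443e, Cdh23 and Rapgef4. With Abcb1a they had log2 fold changes from −2.11 to −0.58. Saline heart 3 was at −0.87 to −0.38 against the mean without a pump on the log2(CPM + 0.5) scale, and its difference was less than 0.5 times the fitted change in 1 of the 12 genes. The choice of genes without overlap fixed the direction in every heart, so the sign in saline heart 3 is no separate evidence.

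Cecr2, a bromodomain protein of chromatin remodelling complexes, was at 46.6, 62.1 and 48.5 CPM without a pump and at 37.3, 36.8, 33.1 and 26.8 CPM with saline. Its log2 fold change was −0.64 (SE 0.15; adjusted p 0.129 in edgeR). Kcnk2, a stretch-sensitive background potassium channel, was at 5.30, 4.04 and 4.92 CPM without a pump and at 2.27, 3.01, 2.62 and 2.89 CPM with saline. The saline hearts of both genes were close to the WT hearts without a pump, which held 34.1 ± 5.48 CPM of Cecr2 and 2.99 ± 0.661 CPM of Kcnk2 (SD, n = 4). Mblac2 had the tightest saline values of the 12, from 5.17 to 5.49 CPM, against 8.29, 7.61 and 8.18 CPM without a pump.

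Grb14, an adaptor that dampens insulin receptor signalling, was at 143, 176 and 147 CPM without a pump and at 94.6, 99.1, 114 and 71.5 CPM with saline, a log2 fold change of −0.71 (SE 0.17). Rapgef4, an exchange factor for Rap that cAMP activates, was at 40.0, 46.0 and 43.8 CPM without a pump and at 29.7, 26.3, 33.1 and 15.6 CPM with saline. Pde11a, a phosphodiesterase of cAMP and cGMP, had the steepest difference of the 12, from 7.21, 11.4 and 5.54 CPM without a pump to 1.27, 0.589, 4.19 and 1.36 CPM with saline. Saline heart 3 was the highest saline heart for each of these 3 genes, and saline heart 4 the lowest for Grb14 and Rapgef4. Myo5b, a vesicle-carrying myosin, was at 59.0, 84.0 and 74.5 CPM without a pump against 51.4, 53.6, 51.0 and 30.1 CPM with saline. Nkain1, which binds the sodium pump, was at 6.04 to 9.60 CPM without a pump and at 2.48 to 4.87 CPM with saline. Cdh23, a long cadherin known from the hair cells of the ear, ran from 23.6 to 29.7 CPM and from 15.2 to 19.8 CPM in the same order.

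All 12 had an unadjusted p below 0.05 in the interaction with genotype (17.2% of all genes did), with Abcb1a alone past adjustment. The interaction contains the same MCT1KO contrast by which the 12 were picked. Their low interaction p-values were therefore favoured by the choice and are no separate evidence of a difference from WT hearts. In WT hearts their log2 fold changes for the pump ran from −0.04 for Mblac2 to 0.61 for D7Ertd443e, and none was called there in edgeR.

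**Figure D2:**
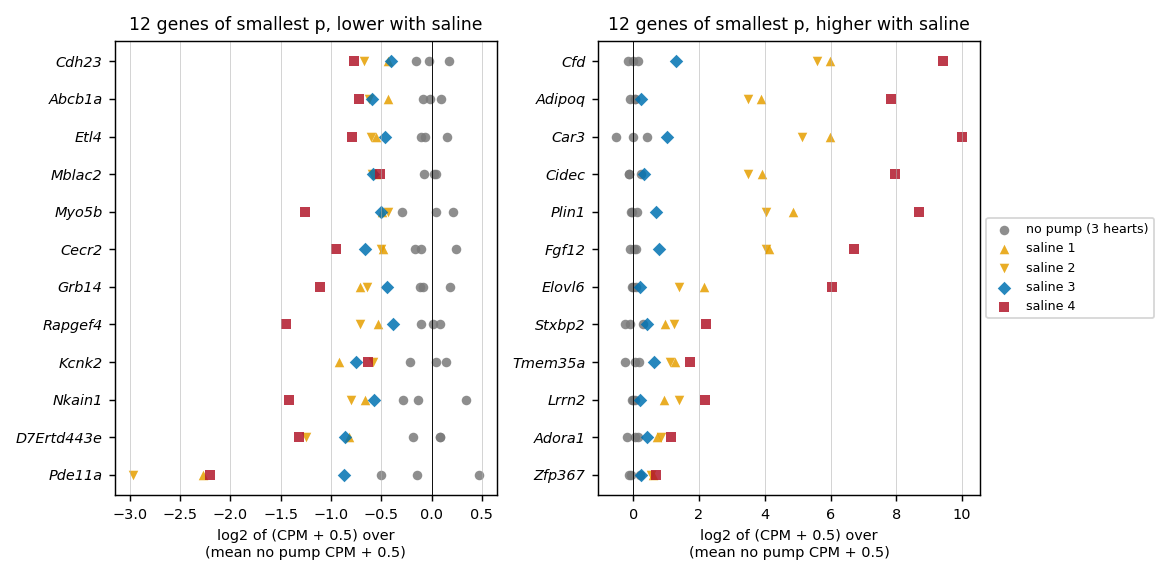
Level of each of the 12 lower (left) and 12 higher (right) genes of smallest p in every MCT1KO heart, as log2 of CPM + 0.5 over the mean without a pump + 0.5; grey circles are hearts without a pump and coloured symbols the 4 saline hearts. On the left, saline heart 3 (blue diamond) sits at −0.87 to −0.38, below 0 by the choice of genes, and is the saline heart nearest to 0 for 6 of the 12. On the right it is the saline heart nearest to 0 for all 12 genes.

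The largest differences in the higher direction belonged to markers of atrial muscle and fat. Saline heart 3 did not share the atrial difference, and its fat markers were only slightly above the hearts without a pump, some of them on very few counts. The 7 atrial cardiomyocyte markers summed to 65.6, 23.8 and 475 CPM in the hearts without a pump and to 2474, 2276, 70.5 and 8026 CPM in saline hearts 1 to 4. The 8 adipocyte markers summed to 1.47, 1.29 and 0.223 CPM without a pump and to 145, 91.3, 4.50 and 2456 CPM with saline. Saline hearts 1, 2 and 4 thus stood above every heart without a pump in both sums. Saline heart 3 lay within the range without a pump in the atrial sum and above it in the adipocyte sum, and all 7 tested adipocyte markers were higher in each saline heart than in any heart without a pump (4.67% of all genes were). For saline heart 3 that count is weak. Adipoq (0.125 CPM) and Cidec (0.187 CPM) did not exceed its limit of 3 counts, 0.187 CPM, while Plin1, Cfd and Car3 did. Its adipocyte sum was near the 1.53 to 3.20 CPM of WT hearts without a pump. In a bulk heart library more cells of a type and more RNA per cell cannot be told apart. All 7 atrial markers and all 7 adipocyte markers that could be tested had an unadjusted p below 0.05, where 7.43% of all genes were higher at that level, and 0 were called.

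The defining markers were almost absent where the sums were low. Myl7, the atrial regulatory myosin light chain, was at 0.785, 0 and 0 CPM without a pump and at 237, 244, 0 and 1357 CPM in saline hearts 1 to 4. Sln, sarcolipin, which restrains the calcium pump of atrial muscle, was at 0.0981 CPM or less without a pump and at 85.04, 67.3, 0 and 348 CPM with saline. A count of 0 allows up to 0.134 to 0.176 CPM in the hearts without a pump (3 counts, counting error only). Bmp10, a growth factor that is known best from the right atrium, differed even among the 3 hearts with atrial RNA, at 1.32, 167 and 134 CPM in saline hearts 1, 2 and 4 and at 0.0625 CPM in saline heart 3. Nppa, atrial natriuretic peptide, a product of the atria and of the stressed ventricle, was at 60.9, 20.4 and 462 CPM without a pump and at 1689, 1366, 62.5 and 3706 CPM with saline. Ventricular markers summed to 7285 to 8500 CPM without a pump, to 6327, 6234 and 8931 CPM in saline hearts 1 to 3, and to 1444 CPM in saline heart 4. Saline heart 4 was thus the highest heart of the 7 for atrial and the lowest for ventricular transcripts.

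Among fat markers, Adipoq, which encodes the hormone adiponectin, was at 0.0586 CPM or less without a pump and at 7.40, 5.56, 0.125 and 123 CPM in saline hearts 1 to 4. Plin1, the coat protein of the fat droplet, was at 0.0894 to 0.176 CPM without a pump and at 17.4, 9.62, 0.4999 and 257 CPM with saline. Cfd, the fat-derived protease adipsin, reached 34.5, 26.0, 0.875 and 380 CPM with saline against at most 0.117 CPM without a pump. Lep, leptin, was at 0 in all hearts without a pump and in saline heart 3. The 6 brown adipocyte markers gave a mixed picture, with 3 of 5 tested genes higher at an unadjusted p below 0.05 (7.43% of all genes were), 2 negative and 0 called. Their sum was 715, 609 and 539 CPM without a pump and 563, 553, 756 and 1064 CPM with saline, and saline hearts 1 and 2 lay inside the range without a pump. Most of the sum came from Cox7a1 and Cox8b, respiratory chain subunits that heart muscle also expresses. Ucp1, the uncoupling protein that defines brown adipocytes, had no count in any heart without a pump and stood at 11.4, 7.53, 0.0625 and 551 CPM in saline hearts 1 to 4. Cidea, a droplet protein abundant in brown fat, was at 149 CPM in saline heart 4 and at 10.6 to 18.3 CPM in the other 6 hearts.

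Among markers of other cell types of the heart, saline heart 4 held the highest sum of the 7 in each of the next 4 sets, and 0 of their genes were called. The 6 endocardial and large vessel endothelial markers summed to 315 to 333 CPM without a pump and to 413, 438, 329 and 717 CPM with saline; 5 of 6 were higher at an unadjusted p below 0.05 (7.43% of all genes were). Npr3, the clearance receptor for natriuretic peptides, was at 35.0, 26.5 and 28.2 CPM without a pump and at 50.4, 59.0, 39.1 and 154 CPM with saline, and Cytl1, a secreted protein, was at 3.75 to 5.32 CPM and at 8.81 to 22.6 CPM. Neither gene overlapped between the groups. The epicardial and mesothelial sum was 35.3, 7.85 and 7.69 CPM against 31.5, 31.4, 13.2 and 116 CPM, which overlapped. Smooth muscle markers summed to 290 to 383 CPM without a pump and to 492, 378, 308 and 988 CPM with saline, which overlapped in saline hearts 2 and 3. Of the 5 mast cell markers, 4 were higher at an unadjusted p below 0.05 (7.43% of all genes were). The 5 summed to 15.3, 8.55 and 9.74 CPM without a pump and to 15.1, 14.1, 14.5 and 28.8 CPM with saline. Only saline heart 4 thus lay above the range without a pump. Mcpt4, a mast cell chymase of connective tissue, was at 2.06, 0.644 and 0.626 CPM without a pump and at 2.32, 1.57, 3.06 and 5.13 CPM with saline; saline heart 2 overlapped, and saline heart 3 lay above all hearts without a pump. Lung epithelial markers were at or near 0 throughout, at a summed 0.0590 CPM or less. The part of these cell type markers in the gene results was not tested beyond the fits with marker scores given below.

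**Figure D3:**
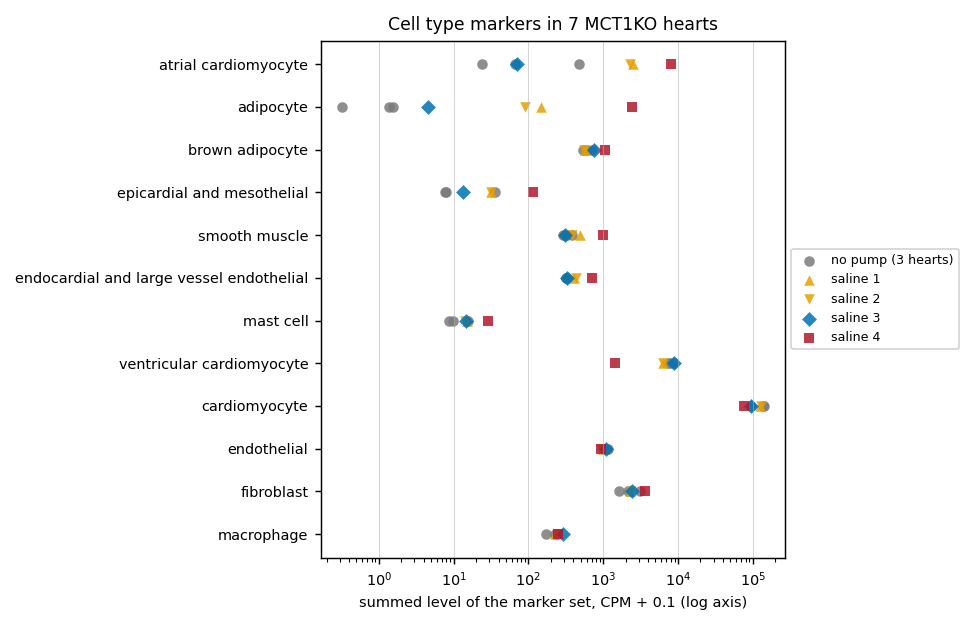
Summed CPM of 12 cell type marker sets in the 7 MCT1KO hearts on a log axis (0.1 CPM added); grey circles are the 3 hearts without a pump and coloured symbols the saline hearts. The atrial sum is 2276 CPM or more in saline hearts 1, 2 and 4 and 70.5 CPM in saline heart 3, which sits with the hearts without a pump.

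The 12 named genes that were higher with saline and did not overlap between the groups had an edgeR adjusted p of 0.129 each. Of these, 5 are adipocyte markers of the list used here, Cfd, Plin1, Car3, Cidec and Adipoq, and Fgf12, a modulator of voltage-gated sodium channels, is in the atrial list. The other 6 were Lrrn2, Adora1, Tmem35a, Stxbp2, Elovl6 and Zfp367. Adora1, the A1 adenosine receptor that slows the sinus node and shortens the atrial action potential, was at 9.96, 12.6 and 11.8 CPM without a pump and at 19.1, 21.01, 15.5 and 26.0 CPM with saline, a log2 fold change of 0.83 (SE 0.18). Elovl6, a fatty acid elongase of lipogenesis, was at 1.03, 1.05 and 1.162 CPM without a pump and at 6.55, 3.66, 1.31 and 105 CPM with saline. Zfp367, a zinc finger transcription factor, had the smallest difference of the 12, from 19.97, 16.7 and 15.7 CPM to 26.4, 25.5, 20.6 and 28.3 CPM, a log2 fold change of 0.53 (SE 0.12). Saline heart 3 was the saline heart nearest to the hearts without a pump for 12 of 12 genes, and in 11 its difference was under 0.5 times the fitted change. The same was true of 6 and 1 of the 12 lower genes. The difference of saline heart 3 has 0.5 CPM added, unlike the fitted change, which shrinks it for genes near 0 CPM. Adipoq was at 3.88 and 3.50 in saline hearts 1 and 2, also under 0.5 times its fitted 9.71. The counts of 11 and 1 therefore do not compare higher and lower genes on equal terms. In the interaction with genotype 8 of the 12 had an unadjusted p below 0.05 and 0 were called. These genes too were picked by the MCT1KO contrast that the interaction contains, so the 8 are no separate evidence.

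Leaving out saline heart 3 turned these differences into calls. That heart was singled out by its measured values, as the saline heart nearest to the hearts without a pump. Calls without it were favoured by that choice and are no separate evidence, here and wherever genes are said to rise or fall without it. The fit without it called 626 of 17665 genes (3.54%), 423 higher (2.39%) and 203 lower (1.15%), and 321 of the higher and 57 of the lower genes changed at least 2-fold. All 7 tested adipocyte markers, 5 of 7 atrial markers and 4 of 6 endocardial and large vessel markers rose in that fit. Fasn, the fatty acid synthase, rose with a log2 fold change of 4.87 (SE 0.79), and Cacna1d, a calcium channel of atrial and pacemaker cells, with 1.93 (SE 0.33), each at an adjusted p of 0.00963 in edgeR. Among genes that fell there were Abcb1a, Pde11a, Nampt, an enzyme of NAD synthesis, at −0.86 (SE 0.14), and Trdn, triadin of the calcium release complex, at −0.63 (SE 0.13, edgeR adjusted p 0.0137). With saline heart 3 as the only saline heart, 0 of 18684 genes passed in edgeR and 875 (4.68%) reached an unadjusted p under 0.05. With saline heart 4 alone 3290 of 19284 (17.1%) passed and 5576 (28.9%) reached that level; a lone heart is assumed in both fits to vary like the other groups. Without saline heart 4, 0 of 17547 passed in edgeR and 1233 (7.03%) had an unadjusted p below 0.05.

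The fits with covariates divided the calls differently. With log2 CPM of Xist as a covariate 69 genes passed in edgeR (0.39%), 67 higher (0.379%) and 2 lower (0.0113%), the latter being Abcb1a at −0.64 (SE 0.12) and Sema3g, an endothelial semaphorin, at −0.63 (SE 0.13). The higher ones included Pck1, Plin1, Adipoq and Cidec, and 64 of the 69 were shared with the 626. The atrial score was the mean log2 CPM of Myl4, Myl7 and Sln. The adipose score was that of Adipoq, Plin1, Cidec, Ucp1 and Cidea. When both scores entered as covariates, 0 genes passed in edgeR and 547 (3.09%) had an unadjusted p below 0.05. The genes of a score are adjusted for themselves in that fit, so their loss of a difference there is no result. Abcb1a then stood at −0.49 (SE 0.14). DESeq2 on all 4 saline hearts called 209 genes, 177 higher (1.00%) and 32 lower (0.181%). Of these 198 were among the 626 called by edgeR without saline heart 3, which is 94.7% of the 209 and 31.6% of the 626. The fits share nearly all their hearts, so this overlap and that of the 64 genes are no separate evidence.

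**Figure D4:**
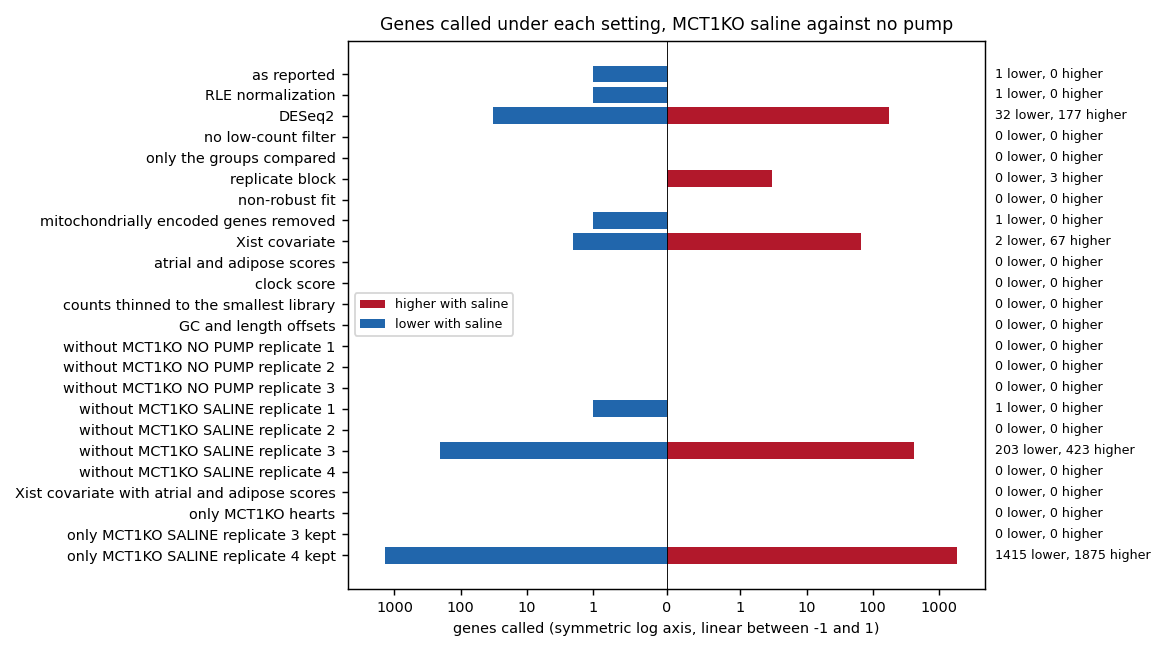
Number of genes called lower (blue, left) and higher (red, right) with saline under each way of fitting, on a symmetric log axis, with the counts at the right margin. The fit as reported calls 1 lower gene, the fit without saline heart 3 calls 203 lower and 423 higher, and only the fit with saline heart 4 as the sole saline heart calls more.

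Transcripts of the mitochondrial genome, which encodes subunits of the respiratory chain and of ATP synthase, were lower in the 3 saline hearts with high atrial and fat RNA and not in saline heart 3. All 13 genes had a negative log2 fold change (median −0.68 against 0.01 over all genes), 10 had an unadjusted p below 0.05 (4.68% of all genes were lower at that level), and 0 were called. The median over the 13 genes was −0.10, 0.19 and −0.29 in the hearts without a pump and −0.99, −0.88, 0.07 and −1.18 in saline hearts 1 to 4. mt-Nd1, a subunit of complex I, was at 13615, 19209 and 11363 CPM without a pump and at 6783, 7469, 14878 and 6228 CPM with saline. Saline heart 3 lay inside the range without a pump and the other 3 below it. mt-Atp6, a subunit of ATP synthase, was at 139, 63.1 and 253 CPM against 31.4, 31.5, 76.0 and 27.1 CPM, a log2 difference of −1.87 (SE 0.43; adjusted p 0.129 in edgeR). Near-copies of mitochondrial genes in the nuclear genome can take reads from them, so the level of any one of these genes is uncertain. Without saline heart 3, 10 of the 13 fell (1.15% of all genes did in that fit), with log2 fold changes from −2.33 for mt-Atp6 to −0.92 for mt-Cytb. Without saline heart 4, 0 of the 13 were called in edgeR and the median was −0.55. In that fit 6 were lower at an unadjusted p below 0.05, a level that 7.03% of all genes reached in either direction. With saline heart 3 as the only saline heart the median was 0.08. The median of the same genes for the pump in WT hearts was −0.53, and 0 of 13 had an interaction p below 0.05.

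Genes of fatty acid uptake and oxidation had lower values in saline hearts 1, 2 and 4, while saline heart 3 lay within the spread of the hearts without a pump. Of 27 genes 26 had a negative log2 fold change, with a median of −0.42, 0 were called, and 17 were lower at an unadjusted p below 0.05 (4.68% of all genes were). The median was −0.03, 0.21 and −0.28 in the hearts without a pump and −0.57, −0.39, −0.20 and −0.64 in saline hearts 1 to 4. Of the 27 genes 5 did not overlap between the groups, all lower with saline (3.93% of all genes were). Acot2, a mitochondrial acyl-CoA thioesterase, was at 79.1, 124 and 78.7 CPM without a pump and at 48.7, 65.6, 65.9 and 44.5 CPM with saline, without overlap, a log2 difference of −0.74 (SE 0.21; adjusted p 0.166 in edgeR). Cpt1b, which commits fatty acids to mitochondrial oxidation in muscle, was at 96.2, 120 and 106 CPM without a pump and at 78.1, 90.1, 88.5 and 68.5 CPM with saline, also without overlap. Etfdh, which passes electrons from fatty acid oxidation to ubiquinone, was at 551, 652 and 485 CPM against 364, 387, 505 and 293 CPM, and saline heart 3 overlapped. Without saline heart 3, 5 of the 27 fell (1.15% of all genes did), namely Cd36 and Fabp3, which bring fatty acids into and through the cell, Etfa, Etfdh and Acot2. Without saline heart 4, 0 of the 27 were called in edgeR and the median was −0.35. In that fit 8 were lower at an unadjusted p below 0.05, a level that 7.03% of all genes reached in either direction. In the interaction with genotype 13 of the 27 had an unadjusted p below 0.05 (17.2% of all genes did), and the median for the pump in WT hearts was 0.03. Beside these values, the cardiomyocyte markers held 0 called genes, with a median of −0.20 over 9 genes and −0.92 in saline heart 4.

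Pyruvate dehydrogenase is the gate by which lactate carbon enters the mitochondrial citrate cycle, and its kinases close that gate. Of the 11 genes of the enzyme and its regulators 10 had a negative log2 fold change, 3 were lower and 1 higher at an unadjusted p below 0.05, against 4.68% and 7.43% of all genes. Pdk1, a kinase of the complex, was at 225, 255 and 217 CPM without a pump and at 173, 170, 190 and 124 CPM with saline. All 4 saline hearts were below the 3 hearts without a pump, and the log2 fold change was −0.50 (SE 0.14; adjusted p 0.166 in edgeR). Pdpr, which regulates the phosphatase, did not overlap either, at 149, 198 and 171 CPM against 139, 135, 131 and 114 CPM. Pdk3, another of the kinases, had the opposite difference, from 1.67, 1.29 and 2.68 CPM to 4.54, 3.73, 2.25 and 8.61 CPM, where saline heart 3 overlapped. Without saline heart 3 Pdk1 fell, at −0.57 (SE 0.15), and Pdk3 rose, at 1.57 (SE 0.39), with edgeR adjusted p of 0.0362 and 0.0279. Without saline heart 4, 0 of the 11 genes were called in edgeR and the median was −0.17. In WT hearts the log2 fold change of Pdk1 for the pump was 0.11.

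Lactate and pyruvate carriers and dehydrogenases gave small and mixed differences. Of 10 tested genes 2 were higher and 1 lower at an unadjusted p below 0.05 (7.43% and 4.68% of all genes were), with a median of −0.21. Slc16a7, the carrier MCT2, was at 17.5, 17.2 and 13.8 CPM without a pump and at 21.7, 20.1, 19.99 and 27.7 CPM with saline, without overlap, a log2 difference of 0.47 (SE 0.22; adjusted p 0.392 in edgeR). Emb, embigin, a chaperone of monocarboxylate carriers, was at 0.937 to 1.28 CPM without a pump and at 1.4996 to 4.84 CPM with saline. Mpc1, a subunit of the mitochondrial pyruvate carrier, was at 174, 148 and 141 CPM against 115, 116, 174 and 90.4 CPM. Saline heart 3 equalled the highest heart without a pump for Mpc1.

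In glucose uptake and glycolysis 4 of 21 tested genes were higher and 0 lower at an unadjusted p below 0.05 (7.43% and 4.68% of all genes were), although the median was −0.11. Pgam1, phosphoglycerate mutase of glycolysis, was at 21.3, 18.2 and 18.5 CPM without a pump and at 23.98, 26.3, 27.4 and 41.5 CPM with saline. It did not overlap, saline heart 3 included, and had a log2 difference of 0.62 (SE 0.15; adjusted p 0.129 in edgeR). Pfkfb3, which makes the activator of phosphofructokinase, differed through saline heart 4 alone, at 208 CPM against 17.3 to 27.8 CPM in the other 6 hearts.

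Of 26 cardiac ion channel genes, 7 were higher and 4 lower at an unadjusted p below 0.05, where 7.43% and 4.68% of all genes were, with a median of 0.16. Cacna1h, a T-type calcium channel, was at 13.7, 19.2 and 12.9 CPM against 56.2, 63.6, 11.5 and 197 CPM, and saline heart 3 was the lowest of all 7. Kcnd2, a channel of the transient outward current of the ventricle, was at 34.3, 47.4 and 43.4 CPM without a pump and at 32.6, 28.5, 32.7 and 23.9 CPM with saline, without overlap. Without saline heart 3, the members that rose included Kcna4, Cacna1h and Abcc8, the sulphonylurea receptor of the atrial potassium channel gated by ATP, and 0 of 26 fell (2.39% of all genes rose and 1.15% fell in that fit). Without saline heart 4, 0 of 26 were called in edgeR and the median was 0.001.

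Among the 16 tested genes used as markers of hypertrophy 1, Nppa, was higher at an unadjusted p below 0.05 (7.43% of all genes were). The median over the 16 was −0.10, with −0.87 in saline heart 4. Collagen and matrix genes had a median of 0.35, with 22 of 24 positive and 3 higher at an unadjusted p below 0.05 (7.43% of all genes were). Col1a1, the main fibrillar collagen chain, was at 142, 124 and 208 CPM without a pump and at 260, 270, 182 and 369 CPM with saline. Saline heart 3 overlapped, and the median over the 24 genes was −0.08, −0.41 and 0.32 in the hearts without a pump and 0.32, 0.32, −0.01 and 0.67 in saline hearts 1 to 4. Heart 3 without a pump was thus level with saline hearts 1 and 2. The fibroblast markers, which share genes of this kind, summed to 1641 to 3127 CPM without a pump and to 2307 to 3648 CPM with saline, and their part in the collagen values was not tested.

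**Figure D5:**
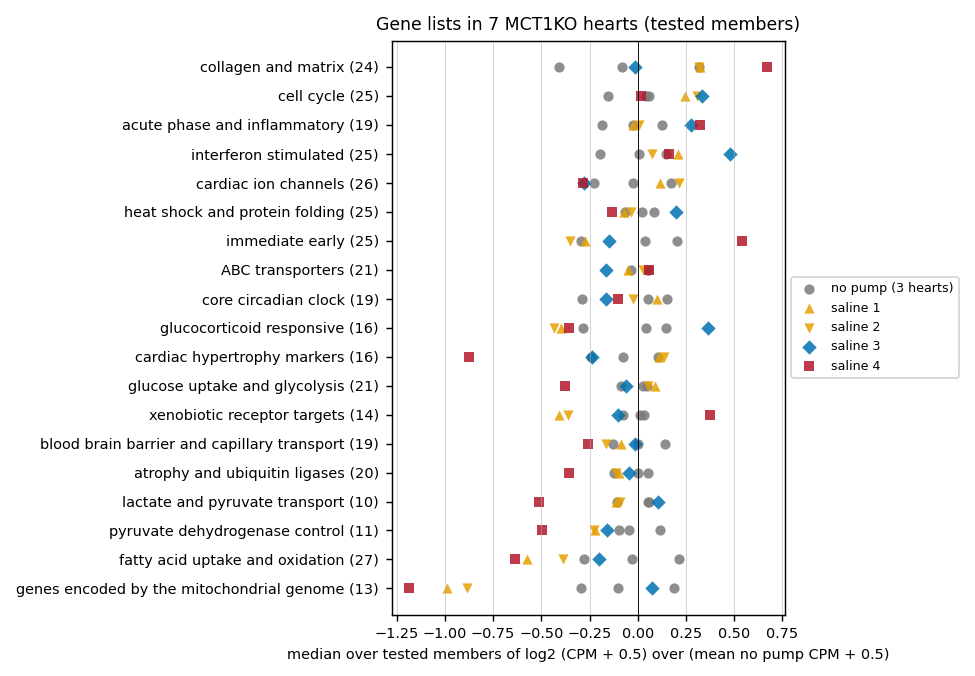
Median over the tested members of each gene list of log2 CPM + 0.5 over the mean without a pump + 0.5, in each MCT1KO heart; grey circles are hearts without a pump and coloured symbols saline hearts. The mitochondrial genome list separates saline hearts 1, 2 and 4 (−0.99, −0.88 and −1.18) from saline heart 3 (0.07) and the hearts without a pump (−0.29 to 0.19), the collagen list does not (0.32 in heart 3 without a pump and in saline hearts 1 and 2), and the cell cycle list has its 3 highest medians in saline hearts 1, 2 and 3.

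Lists that cover cell division, inflammation and stress held 0 called genes in edgeR. Of 25 cell cycle genes 22 had a positive log2 fold change, with a median of 0.32 and 0 at an unadjusted p below 0.05; Mki67, a marker of dividing cells, was at 7.46, 5.27 and 6.93 CPM without a pump and at 11.3, 12.4, 12.1 and 6.78 CPM with saline. Saline heart 4 alone overlapped for Mki67. Of 25 interferon-stimulated genes 23 were positive, with a median of 0.22 and 2 higher at an unadjusted p below 0.05 (7.43% of all genes were). Ifi27l2a, an interferon-induced mitochondrial protein, was at 5.05, 4.22 and 8.94 CPM against 13.3, 11.4, 10.2 and 37.2 CPM, without overlap, a log2 difference of 1.56 (SE 0.48; adjusted p 0.201 in edgeR). The 19 tested acute phase and inflammatory genes had 1 lower, Nfkbia, the inhibitor of NF-kappaB, at an unadjusted p below 0.05 (4.68% of all genes were). The 8 macrophage markers were all positive with a median of 0.28 and 0 at an unadjusted p below 0.05, and their sums overlapped at 172 to 241 CPM and 224 to 290 CPM. Among 25 immediate early, 25 heat shock and 19 clock genes, 1 each had an unadjusted p below 0.05 (12.1% of all genes did), and the medians were −0.01, 0.04 and −0.03. Genes of muscle atrophy had 2 of 20 lower at that level and 0 higher (4.68% and 7.43% of all genes were).

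Since Abcb1a was the called gene, the other transporters of its family and of capillaries were listed as well. Of 21 tested ABC transporter genes 3 were lower and 2 higher at an unadjusted p below 0.05, against 4.68% and 7.43% of all genes, with a median of −0.01. The lower ones were Abcb1a, Abcb4 and Abcd3. Abcb4, a phospholipid exporter of the same gene cluster, was at 37.0, 40.8 and 38.9 CPM without a pump and at 32.5, 30.5, 32.7 and 13.98 CPM with saline, without overlap, at −0.50 (SE 0.20, edgeR adjusted p 0.306). Abcd3, a peroxisomal fatty acid transporter, was at 100.3, 128 and 80.9 CPM against 66.9, 73.8, 89.9 and 84.8 CPM and overlapped. Abcg2, another drug exporter of capillaries, was at 31.5, 23.2 and 30.6 CPM against 27.5, 30.5, 37.9 and 24.5 CPM, also with overlap.

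Of 14 tested targets of the xenobiotic receptors 3 were lower and 0 higher at an unadjusted p below 0.05 (4.68% and 7.43% of all genes were). Nqo1, a quinone reductase, was at 50.5, 54.5 and 56.1 CPM without a pump and at 36.0, 38.7, 42.6 and 17.8 CPM with saline, without overlap, a log2 difference of −0.67 (SE 0.19; adjusted p 0.160 in edgeR). It fell in the fit without saline heart 3, at −0.79 (SE 0.19, edgeR adjusted p 0.0271), and was not called in the fit without saline heart 4. Among 19 tested genes of the blood-brain barrier and of capillary transport, 3 were lower and 2 higher at an unadjusted p below 0.05 (4.68% and 7.43% of all genes were). Slc3a2, the heavy chain of amino acid carriers, was at 28.2, 29.6 and 30.1 CPM against 36.7, 37.4, 31.5 and 41.9 CPM, without overlap, at 0.33 (SE 0.10, edgeR adjusted p 0.166). General endothelial markers had a median of −0.18 over 9 genes. Of these 1 was lower and 0 higher at an unadjusted p below 0.05 (4.68% and 7.43% of all genes were).

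The pump had more calls in WT hearts, where 1168 genes passed in edgeR (6.61%), 422 higher (2.39%) and 746 lower (4.22%), with 6 and 4 hearts. A count of calls does not compare the size of the effects, since the number of hearts and their spread differ. In the interaction 1 gene passed. Xist was above 100 CPM in 2 of the 4 WT hearts without a pump and in 1 of the 6 with saline. Atrial RNA was present there too: the atrial markers summed to 62.5 to 147 CPM in the 4 WT hearts without a pump and to 48.3 to 2978 CPM in the 6 WT saline hearts. The adipocyte markers reached 86.5 CPM in WT saline hearts, against 2456 CPM in saline heart 4 with the MCT1KO label. The MCT1KO Ang/PE hearts had 329 to 5203 CPM of the atrial markers, a sum that Nppa enters, and 3.36 CPM or less of the adipocyte markers. Myl7, which had no count or 0.785 CPM in MCT1KO hearts without a pump, was at 0.0987 ± 0.106 CPM (SD, n = 5) with Ang/PE.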

How the data were processed

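Total RNA of 25 mouse hearts was depleted of ribosomal RNA and sequenced from stranded libraries, per the labels' protocols. The authors deposited 1 table of raw read counts per gene, 56941 genes by 25 libraries. The submitters' processing notes name STAR 2.7.9a, cutadapt 1.16, featureCounts 1.6.3, DESeq2 1.42.1 and the builds GRCm39 and mm39. The annotation and the strand setting of the counting are not given in the sources used here, so reads of overlapping, antisense or near-identical genes may be misassigned. Symbols came from the gene name table (51948 genes), and genes without one held 0.778% of the reads. GENCODE M21 (GRCm38) served only for transcript sequence, GC content and length, and RefSeq for promoters.

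Counts were filtered by group with filterByExpr (17682 genes left), scaled by TMM and fitted with edgeR 4.0.16 in R 4.3.3. The model had 6 groups and all 25 hearts (glmQLFit, robust; 19 residual degrees of freedom; common biological coefficient of variation 0.196). Tests were two-sided with Benjamini-Hochberg adjustment over all genes, and a gene was called below 0.05. CPM are over TMM-scaled libraries. Depth per group is given in the report, and intervals or zero-count limits cover counting error only where stated. Standard errors were derived from the F statistic. The procedure was tested on simulated counts with the same mean per gene in all hearts, apart from changes planted in the saline group. The split among the saline hearts and the uneven Xist were not simulated, so that test does not cover them.

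Named were Slc16a1, called genes, in each direction the 12 genes of smallest p (mean log2 CPM above 1, a symbol that is no predicted gene model, no overlap between groups), and up to 4 members of smallest p plus defining markers from each of 20 gene lists and 22 marker sets. Other names were chosen after their values were seen: the genes named only from the fits without saline heart 3 or with the Xist covariate, Abcb1b and Abcg2. The comparison, the members and the lists were chosen with earlier results of these data known. Other ways of processing numbered 19. Leaving out each heart in turn made 7 of these. The rest changed the tool (DESeq2 1.42.0), the scaling (RLE), the filter, the hearts in the model, the pairing by replicate number, the robust setting or the counts (thinned, or without mitochondrially encoded genes), or added Xist, tissue marker or clock covariates, or offsets for GC and length (mgcv 1.9.3). A further 4 were added after seeing the data, and all are covered in the closing section. Saline hearts 1 and 2 were the most alike of the 9 within-group pairs. Their chi-square per degree of freedom was 3.33, against 26.7 to 108 for the others. That exceeds counting noise, but separate libraries of 1 heart could exceed it too, so the value cannot show separate hearts. All were kept as separate samples, as labelled, and the tests count them so.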

Additional observations from a re-analysis of the deposited data

Results flagged for a closer look

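Of 69 checks for a heart that stood far from the rest of the 4 saline hearts, 6 were met, where chance would give 3.45. Saline heart 4 accounted for 5. Myo5b was at 30.1 CPM there and at 51.0 to 53.6 CPM in the other 3 saline hearts. The summed level of the atrophy and ubiquitin ligase genes was 2532 CPM there, against 2914 to 2940 CPM. The summed level of the sex chromosome genes was 498 CPM, against 1116 to 1242 CPM, in the 1 saline heart without Xist. Fibroblast markers summed to 3648 CPM, against 2307 to 2418 CPM, and mast cell markers to 28.8 CPM, against 14.1 to 15.1 CPM. Saline heart 3 was the high one for the share of counts from the mitochondrial genome, 17.3% against 9.03% to 10.04%.

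A difference between the genotypes was met by Abcb1a, whose pump effect in MCT1KO hearts minus that in WT hearts was −0.81 on the log2 scale (edgeR adjusted p 0.0285), a call lost with the Xist covariate, the marker scores, the clock score, the GC and length offsets, only the groups compared, and without saline heart 2, 3 or 4 or heart 2 or 3 without a pump. It was lower in 4 of 4 MCT1KO saline hearts than in each of the 3 hearts without a pump.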

How the results depend on the processing

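Calls for saline against no pump in MCT1KO hearts numbered 1 as reported, and DESeq2 (209) and the Xist covariate (69) gave more. The count was 0 in edgeR with no low-count filter (2983 at an unadjusted p below 0.05), with only the groups compared (1220), a non-robust fit (2160), atrial and adipose scores (547), the clock score (2101), counts thinned to the smallest library (2024) and GC and length offsets (2342). Leaving out 1 heart gave 0 to 626. Of the fits added after seeing the data, Xist with the marker scores and only MCT1KO hearts gave 0 (261 and 1445 unadjusted), saline heart 3 alone 0 and saline heart 4 alone 3290. Calls in the interaction, 1 as reported, numbered 338 with DESeq2, 3 with no filter, 0 to 69 when 1 heart was left out (69 without heart 1 of no pump), 532 with saline heart 3 alone and 2314 with saline heart 4 alone. They were 0 with only the groups compared, the Xist covariate, the marker scores, both together, the clock score and the offsets (2979, 2198, 1916, 653, 2515 and 2786 unadjusted). The replicate numbers do not pair the hearts (correlation −0.23 to 0.06 over 3 same-numbered pairs); with the replicate block 3 genes were called, Retn, Plin1 and Adrb3, all higher, and 9 in the interaction.

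Among 575 values of the 25 named genes under these fits, 3 changed direction: Slc16a1 to 0.0816 and Adipoq to −0.57 with Xist and the marker scores, and Elovl6 to −0.16 with the marker scores. Adipoq is itself part of the adipose score, so its change of direction is no separate result. The cause was otherwise not tested. Abcb1a ran from −0.73 to −0.49, with an edgeR or DESeq2 adjusted p from 1.00e-05 to 1.00, and lost its call in 16 of 23 fits. With the Xist covariate and marker scores together the median of the mitochondrial genome list was 0.09 and that of fatty acid oxidation −0.02, and with marker scores that of collagen was −0.07. With 3 hearts and 4, and 1 saline heart without Xist, pump and sex are nearly aliased. Levels under the limit of 3 counts, such as the fat markers without a pump, have no usable fold change.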

Other observations

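Glucocorticoid-responsive genes set saline heart 3 apart from the other saline hearts. The median over 16 genes was −0.40, −0.44, 0.37 and −0.36 in saline hearts 1 to 4, with 0 genes at an unadjusted p below 0.05 in either direction. Zbtb16, a transcription factor induced by glucocorticoids, was at 168, 118 and 149 CPM without a pump and at 98.7, 102, 407 and 91.8 CPM with saline. Fkbp5, a chaperone of the glucocorticoid receptor, was at 40.0, 18.3 and 35.8 CPM without a pump and at 16.7, 19.1, 70.6 and 20.3 CPM with saline. Saline heart 3 was the highest of the 7 for both genes, which were chosen after their values were seen. In WT hearts the median of the list for the pump was −0.82, and 5 of the 16 genes had an interaction p below 0.05 (17.2% of all genes did).

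Erythroid markers had negative log2 fold changes in 6 of 6 genes, with a median of −0.73, 0 at an unadjusted p below 0.05, and sums of 1695, 412 and 486 CPM without a pump against 413, 352, 805 and 542 CPM with saline. S100b, a calcium-binding protein of glia, was at 0.344, 0.703 and 0.715 CPM without a pump and at 1.53, 1.51, 0.750 and 5.90 CPM with saline, without overlap.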
